A study of Cavia porcellus with 10 samples.

Results

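Aminoacyl-tRNA synthetases are the enzymes that attach each amino acid to its transfer RNA before the ribosome uses it. Their genes were taken from the scleral count table by symbol: EPRS1, FARSA, FARSB, and every symbol made of 1 letter and ARS with an optional last 1, 2 or L. No fold change or test entered the rule, which uses measured values only to take the line with the highest mean count where a symbol stands on several. It found 37 genes among 17642 lines with a symbol, 20 of them for the cytosolic set and 17 for the mitochondrial set, and all 37 passed the filter on low counts. The asparagine enzyme of the cytosol, listed as NARS, was the member on 2 lines.

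RNA was sequenced from whole sclera, the tough white wall of the eyeball, of male guinea pigs (Cavia porcellus) 2 to 3 weeks old. In the myopia group nearsightedness had been induced by lenses over both eyes, and the control group received no treatment. There were 5 libraries in each group, 1 per eye, and the sources used here do not say which eyes come from the same animal. No genotype, transgene or drug is named for either group.

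Mammalian cells keep separate nuclear genes for the cytosolic and the mitochondrial synthetase of most amino acids. GARS1 (glycine) and Kars1 (lysine) make both forms from 1 gene and are counted here with the cytosolic set. There is no mitochondrial glutamine enzyme: mitochondria charge that transfer RNA with glutamate through EARS2 and then amidate it. Several cytosolic enzymes sit in the multisynthetase complex on the scaffold proteins AIMP1, AIMP2 and EEF1E1, and many cytosolic synthetase genes are known targets of ATF4, the transcription factor of the amino acid response. Scleral fibroblasts secrete collagen, a protein rich in glycine and proline, so tRNA charging feeds directly into their main product.

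Library totals ran from 32309258 to 35430797 counts, and a synthetase gene held between 31 and 10940 counts in a library. The first principal component of all genes held 77.1% of the variance, with the control libraries at -94.6 to -24.6 and the myopia libraries at 61.5 to 72.5. Control libraries 4 and 5, at -49.7 and -24.6, lay nearest to the myopia libraries. All 10 fibroblast markers examined, among them COL1A1 and DCN, were detected in the tissue labelled sclera. Their sum was 125000 to 157000 CPM in control and 70800 to 95900 in myopia. CPM are counts scaled by library size and by the trimmed mean factors described below. Of these markers, 4 fell and 2 rose. Most of the sum is COL1A1, which fell from 82710 ± 9356 to 35547 ± 3273 CPM, and COL1A2, at 37552 ± 2596 and 30633 ± 3588 CPM (mean ± SD, n = 5 per group), which did not pass, while DCN rose by 0.42 ± 0.17 on the log2 scale. Of markers of other cells, 4 of 4 red blood cell genes and 10 of 10 macrophage genes fell, from a summed 2500 to 10600 CPM to 100 to 457 CPM and from 1340 to 2170 CPM to 395 to 591 CPM. Skeletal muscle markers fell in 5 and rose in 2 of 10 cases (2550 to 6380 CPM in control, 1690 to 4150 in myopia). Ttn and NEB rose by 2.07 ± 0.37 and 2.28 ± 0.33 on the log2 scale, without overlap of the groups. Acta1, Myh1, MYH2, TNNT1 and DES fell, with log2 fold changes of -1.22 to -0.84. Why muscle genes split in this way, gene length included, was not tested. Retinal markers fell in 4 of 8 (916 to 1380 CPM against 691 to 960), and pigment cell markers fell in 3 and rose in 2 of 6 (133 to 414 CPM against 36.5 to 206). For scale, 36.9% of all genes tested rose and 35.1% fell. No marker on these lists was at 0 in every library. In bulk tissue, fewer cells of a type and less RNA per cell cannot be told apart, and the part of any of these cells in the synthetase values was not tested.

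In the myopic sclera the cytosolic and the mitochondrial synthetases each split into genes that rose and genes that fell. Of the 20 cytosolic genes, 14 fell and 5 rose, and of the 17 mitochondrial genes, 7 fell and 5 rose (edgeR quasi-likelihood test, adjusted p under 0.05 over 14683 genes). Over all genes tested 71.9% passed in either direction, 36.9% higher and 35.1% lower, so the 31 of 37 synthetases that passed are a share close to a background in which most genes differ. The median log2 fold change was -0.47 for the cytosolic set and -0.28 for the mitochondrial set, beside 0.03 for all genes tested. Without GARS1 and Kars1 the cytosolic set held 12 genes that fell and 5 that rose. Fold changes were modest: 7 of 37 members passed and changed at least 2-fold, against 32.1% of all genes. The groups did not overlap for 27 of 37 members, against 57.8% of all genes (29.8% higher and 28.0% lower in myopia).

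How many synthetases count as lower rests on how the libraries are scaled. CPM here are scaled by trimmed mean (TMM) factors, and with total counts alone the median of all genes moved from 0.03 to 0.47 and the share of calls that were higher from 51.2% to 73.5%. On that scale 7 cytosolic genes were lower and 6 higher, and 3 mitochondrial genes were lower and 7 higher. The 10 rises were called on both scales, as were 10 of the 21 falls (7 cytosolic and 3 mitochondrial). The 7 cytosolic falls called only with TMM factors were Cars1, EPRS1, FARSB, Kars1, MARS1, Qars1 and Yars1, and the 4 mitochondrial ones were AARS2, IARS2, LARS2 and TARS2. As a share of all counts with a symbol, the cytosolic set held 0.140 ± 0.00386% in control and 0.138 ± 0.00371% in myopia, and the mitochondrial set 0.0316 ± 0.00134% and 0.0337 ± 0.00204% (mean ± SD, n = 5 per group). Higher and lower, above and below, are relative to the TMM scale unless total counts are named.

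**Figure D1:**
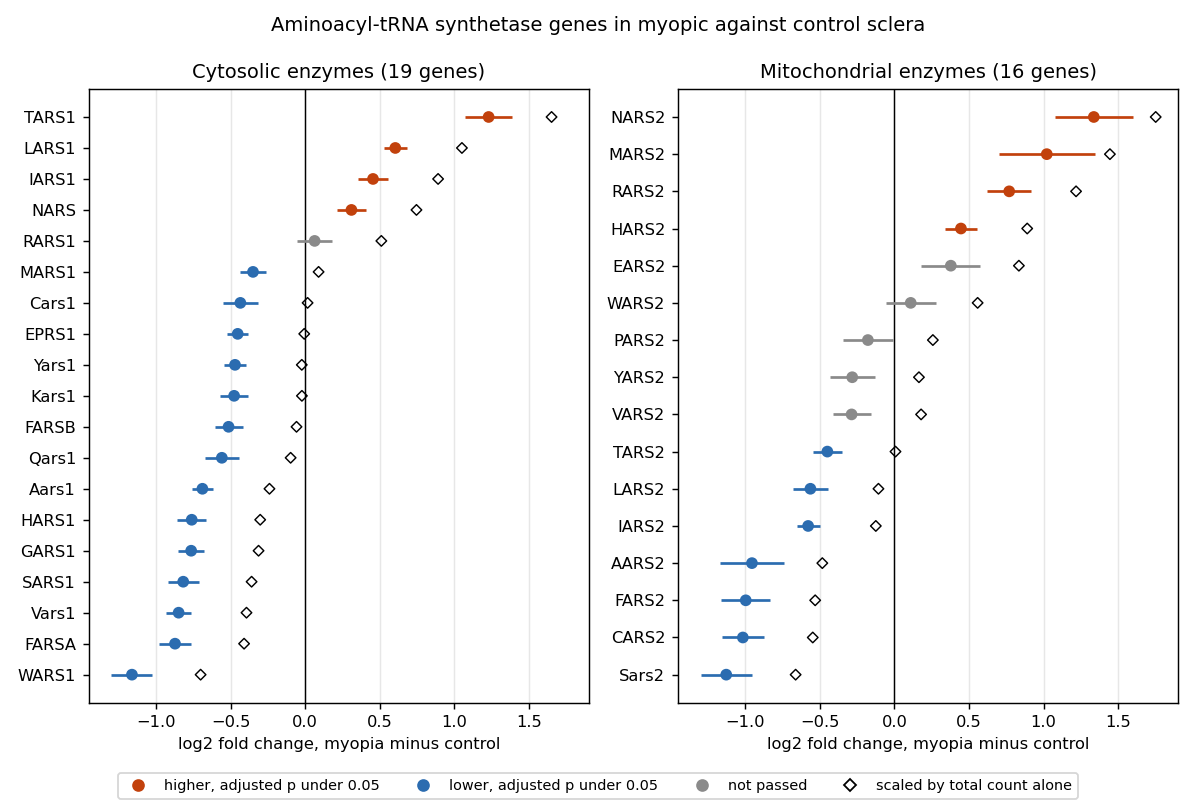
Log2 fold change, myopia minus control, of 19 cytosolic and 16 mitochondrial synthetase genes (circles, with bars of 1 standard error; red rose, blue fell, grey did not pass), with open diamonds for the value scaled by total count alone. Both sets run from genes near -1.1 to genes above 1.2, and the diamonds lie to the right of every circle, so that 11 of the blue genes are no longer called.

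Among the cytosolic enzymes TARS1, which charges threonine, rose most. It stood at 17.9, 19.9, 20.4, 27.6 and 31.7 CPM in control libraries 1 to 5 and at 46.5, 61.0, 61.3, 48.8 and 58.3 CPM in myopia libraries 1 to 5. Its log2 fold change was 1.23 ± 0.16 (SE; edgeR adjusted p = 1.09e-05). Control libraries 4 and 5 were the highest of their group and still below every myopia library.

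LARS1, the leucine enzyme, which also takes part in leucine sensing for mTORC1, was the tightest of the rising genes. Its control libraries stood at 48.6, 46.5, 47.8, 45.8 and 47.7 CPM, a spread of 2.36% (SD over mean), and its myopia libraries at 68.5, 75.9, 68.9, 66.9 and 79.3 CPM, a log2 fold change of 0.60 ± 0.08 (SE; edgeR adjusted p = 1.10e-05). IARS1, the isoleucine enzyme, rose by 0.45 ± 0.10, from 34.6, 34.2, 36.6, 47.0 and 43.1 CPM to 50.3, 55.0, 54.0, 51.2 and 57.5 CPM. In contrast to IARS1, LARS1 did not set control libraries 4 and 5 apart from the other controls.

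NARS rose by 0.31 ± 0.10 (edgeR adjusted p = 0.0106), from 53.6 ± 6.80 to 66.5 ± 4.81 CPM (mean ± SD, n = 5 per group), with groups that overlapped. The other line with the symbol NARS stood at 48.0 ± 2.01 and 46.2 ± 4.25 CPM and did not pass (-0.06 ± 0.08, edgeR adjusted p = 0.558). With both lines summed NARS did not pass either (0.17 ± 0.08, edgeR adjusted p = 0.0890). The table does not say how the lines differ, so the change of the cytosolic asparagine enzyme is uncertain. RARS1, the arginine enzyme of the complex, had a log2 fold change of 0.06 ± 0.12 and did not pass (edgeR adjusted p = 0.635).

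WARS1, the tryptophan enzyme, fell most of the cytosolic set. This gene is known to be induced by interferon gamma, and secreted forms of the protein act outside translation. It stood at 332, 385, 299.9, 277 and 249 CPM in control libraries 1 to 5 and at 176, 139, 115, 132 and 129 CPM in myopia, a log2 fold change of -1.16 ± 0.14 (SE; edgeR adjusted p = 6.43e-06). Every myopia library lay below every control library, and the fall held with total counts alone (-0.70). The 10 macrophage markers moved the same way, and their part in the WARS1 value was not tested.

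FARSA and FARSB, the catalytic and the partner subunit of the cytosolic phenylalanine enzyme, both fell. FARSA stood at 90.0, 86.5, 85.1, 71.2 and 61.0 CPM in control and at 43.9, 42.0, 39.0, 42.7 and 47.4 CPM in myopia (-0.87 ± 0.11), with the 2 lowest control values in libraries 4 and 5. FARSB went from 39.4 ± 4.08 to 27.6 ± 2.02 CPM (-0.51 ± 0.09). Vars1, the valine enzyme, stood at 71.1, 63.6, 68.5, 67.9 and 61.5 CPM in control and at 40.7, 33.1, 34.5, 40.3 and 36.2 CPM in myopia, a log2 fold change of -0.85 ± 0.09 (SE; edgeR adjusted p = 2.01e-06). In Vars1 all control libraries lay close together, libraries 4 and 5 included.

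The enzymes for the 2 amino acids most typical of collagen were among the 14 of 20 cytosolic genes that fell. The median of the cytosolic set was -0.47, and a link to collagen synthesis was not tested. GARS1, the glycine enzyme of cytosol and mitochondrion, stood at 133, 127, 111, 113 and 108 CPM in control and at 69.3, 77.6, 66.6, 62.7 and 71.5 CPM in myopia (-0.76 ± 0.09, edgeR adjusted p = 5.63e-06). EPRS1, 1 protein with a glutamate and a proline enzyme that is a hub of the complex, stood at 159.8, 155, 163, 164 and 158 CPM in control and at 118, 123, 113, 112 and 118 CPM in myopia (-0.45 ± 0.07). EPRS1 varied least of all members in control, by 2.31% (SD over mean). With total counts alone GARS1 remained lower (-0.31), while EPRS1 stood at -0.01 and did not pass.

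Kars1, the lysine enzyme shared by both compartments, stood at 98.9, 99.5, 88.4, 83.3 and 76.6 CPM in control and at 63.6, 70.7, 65.9, 58.5 and 62.4 CPM in myopia (-0.48 ± 0.09). Qars1, the glutamine enzyme, stood at 132, 139, 127, 107 and 91.9 CPM in control and at 73.6, 87.9, 77.3, 78.9 and 87.7 CPM in myopia (-0.56 ± 0.11). In both genes the lowest control library was number 5, and neither passed with total counts alone (-0.02 and -0.10). The remaining cytosolic genes fell too: SARS1 (serine) by 0.82 ± 0.11, HARS1 (histidine) by 0.76 ± 0.10, Aars1 (alanine) by 0.69 ± 0.07, Yars1 (tyrosine) by 0.47 ± 0.07, Cars1 (cysteine) by 0.43 ± 0.12 and MARS1 (methionine) by 0.35 ± 0.09 (log2 fold change and SE). Of these 6 genes Cars1 had groups that overlapped. SARS1, HARS1 and Aars1 also fell with total counts alone.

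The 8 enzymes of the multisynthetase complex had a median log2 fold change of -0.14: 4 fell, 3 rose and RARS1 did not pass. The 12 cytosolic genes outside it had a median of -0.72, and 10 of them fell while 2 rose. The difference between these groups was not tested, and over all genes 36.9% were higher and 35.1% lower. The scaffold genes Aimp1 and Aimp2 fell by 0.83 ± 0.17 and 0.42 ± 0.09 on the log2 scale, and EEF1E1 had a value of 0.28 ± 0.14 that did not pass (edgeR adjusted p = 0.0833). The members of the complex thus did not move as a block: LARS1 and IARS1 rose while their scaffold genes Aimp1 and Aimp2 fell. By catalytic fold, the class I enzymes of the cytosol had a median of -0.43 over 9 genes and the class II enzymes -0.60 over 10, and the mitochondrial classes had -0.28 over 9 and -0.31 over 8, so each class held genes that rose and genes that fell. EPRS1, which carries both folds, stands in neither class.

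**Figure D2:**
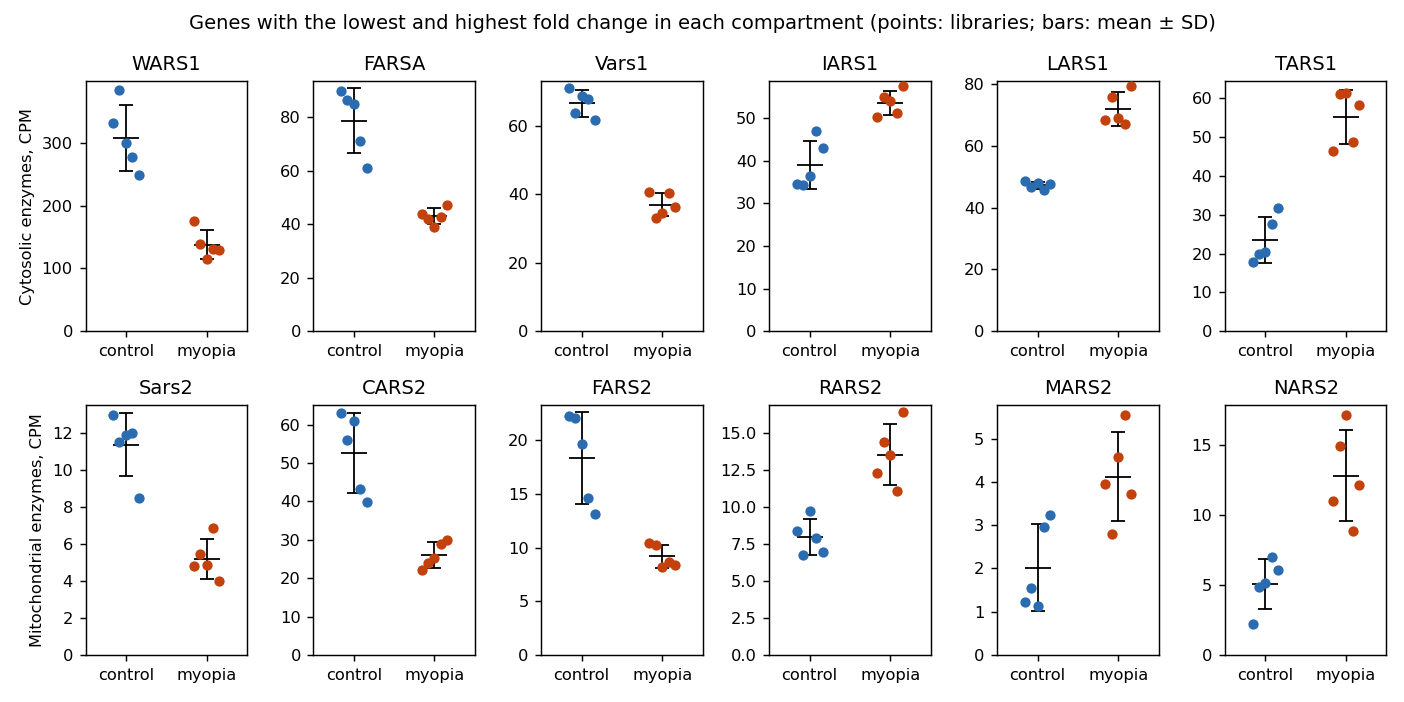
TMM-scaled CPM of the 3 lowest and the 3 highest fold changes in each compartment among the genes plotted (points are libraries 1 to 5 from left to right in each group; bars are mean ± SD). MARS2 is the 1 panel in which the groups overlap, since its control libraries 4 and 5 lie above its lowest myopia library.

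Among the mitochondrial enzymes NARS2, for asparagine, rose most. It stood at 2.25, 4.86, 5.12, 7.02 and 6.07 CPM in control libraries 1 to 5 and at 11.01, 14.9, 17.2, 8.87 and 12.2 CPM in myopia (1.34 ± 0.26, edgeR adjusted p = 0.000445). MARS2, for methionine and the least counted member, stood at 1.22, 1.55, 1.13, 2.95 and 3.24 CPM in control and at 3.95, 2.79, 4.57, 5.56 and 3.71 CPM in myopia (1.02 ± 0.32, edgeR adjusted p = 0.0112). In MARS2 control libraries 4 and 5 reached into the myopia range, and its control spread of 49.7% (SD over mean) was the widest of all members. RARS2, for arginine, stood at 8.40, 6.76, 9.76, 7.87 and 6.94 CPM in control and at 12.3, 14.4, 13.5, 11.1 and 16.4 CPM in myopia (0.77 ± 0.15), with all control libraries below all myopia libraries.

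HARS2, for histidine, rose by 0.45 ± 0.11. Its control libraries lay within a narrow band, at 15.4, 14.9, 14.3, 14.8 and 15.5 CPM, and its myopia libraries at 17.3, 22.4, 20.2, 18.2 and 24.1 CPM. In mammals HARS1 and HARS2 lie side by side on opposite strands, and whether the counting used strand is not given in the sources used here.

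Sars2, for serine, fell most of the mitochondrial set. It stood at 12.9, 11.5, 11.9, 12 and 8.48 CPM in control and at 4.81, 5.47, 4.88, 6.86 and 3.98 CPM in myopia (-1.13 ± 0.17, edgeR adjusted p = 5.26e-05). CARS2, for cysteine, which also makes the persulfide form of that amino acid, stood at 63.1, 56.0, 61.1, 43.2 and 39.9 CPM in control and at 22.2, 23.9, 25.3, 28.9 and 29.9 CPM in myopia (-1.02 ± 0.14). FARS2, the 1-chain phenylalanine enzyme, stood at 22.3, 22.1, 19.7, 14.7 and 13.1 CPM in control and at 10.5, 10.2, 8.24, 8.65 and 8.40 CPM in myopia (-0.997 ± 0.163). CARS2 and FARS2 were lowest among the controls in libraries 4 and 5, and in all 3 genes the groups did not overlap. These 3 falls are also those of the mitochondrial set that were called with total counts alone.

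AARS2, for alanine, fell from 8.29 ± 1.80 to 4.27 ± 1.10 CPM (-0.96 ± 0.21). IARS2, for isoleucine, stood at 124, 122, 132, 122 and 109 CPM in control and at 86.6, 79.6, 78.0, 85.0 and 78.7 CPM in myopia (-0.58 ± 0.08). LARS2, for leucine, stood at 25.4, 18.0, 21.1, 23.1 and 18.4 CPM in control and at 15.02, 14.3, 13.5, 15.5 and 13.5 CPM in myopia (-0.56 ± 0.12). All 3 had groups without overlap. TARS2, for threonine, stood at 45.3, 45.5, 46.6, 41.4 and 34.1 CPM in control and at 30.6, 32.4, 29.2, 29.3 and 34.3 CPM in myopia (-0.45 ± 0.10), where control 5 lay just below the highest myopia library.

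The other 5 mitochondrial genes did not pass. VARS2 (valine) had a log2 fold change of -0.29 ± 0.13 (edgeR adjusted p = 0.0573), YARS2 (tyrosine) -0.28 ± 0.15, PARS2 (proline) -0.18 ± 0.17, WARS2 (tryptophan) 0.11 ± 0.17 and EARS2 (glutamate) 0.38 ± 0.20 (edgeR adjusted p = 0.0992). WARS2 stood at 5.92, 4.37, 5.70, 5.54 and 4.78 CPM in control and at 4.78, 6.001, 7.21, 5.39 and 5.00 CPM in myopia, which overlap throughout. VARS2 passed without control 5 (-0.35), myopia 4 (-0.34), myopia 5 (-0.33) or control libraries 4 and 5 together (-0.43), with adjusted p values of 0.0157, 0.0376, 0.0478 and 0.00384 in the edgeR test. EARS2 passed without control 4 (0.55, edgeR adjusted p = 0.0188) and without control libraries 4 and 5 (0.46, edgeR adjusted p = 0.0387).

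**Figure D3:**
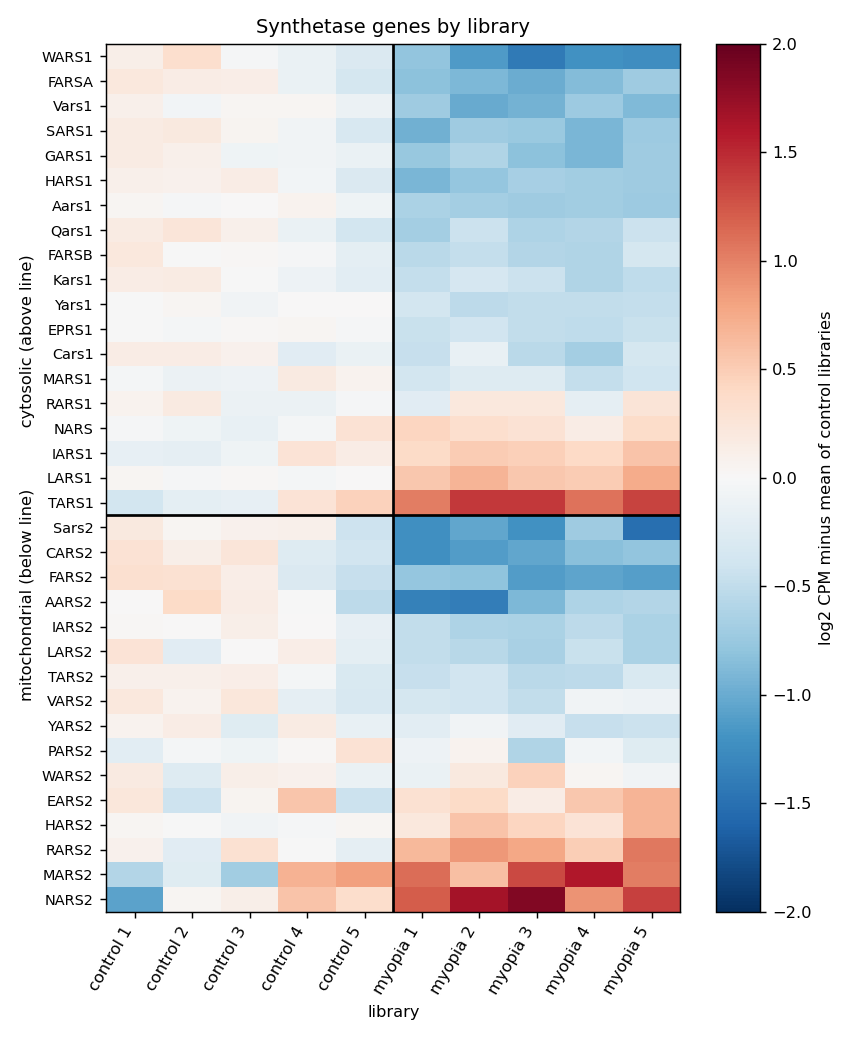
Log2 CPM of the same 35 synthetase genes in each library minus the mean of the 5 control libraries, with genes ordered by fold change within the cytosolic set (above the line) and the mitochondrial set (below it). Red genes at the foot of each set and blue genes at its head separate the groups, and control library 5 shows paler forms of the myopia colours for many genes.

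The control libraries were not equally far from myopia. Of the 31 members that passed, control library 5 was the control nearest to the myopia mean for 22, and libraries 1 to 4 for 1, 3, 2 and 3. Without control libraries 4 and 5 the same 31 members passed in the same direction, with VARS2 and EARS2 added. The cytosolic counts then stayed at 14 lower and 5 higher, and the mitochondrial counts were 8 and 6.

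Cytosolic and mitochondrial enzymes for the same amino acid can be compared within each library, as a ratio of their counts that does not depend on scaling between libraries. The ratio still carries the lengths of both genes, so its change between groups is read and not its level. Whether gene length affected the counts equally in both groups was not tested. Of 18 such ratios, 7 fell and 6 rose in myopia (two-sided exact permutation test over the 10 libraries, adjusted over the 18 ratios, under 0.05). FARS2 and EPRS1 each enter 2 ratios. The smallest p that 5 against 5 libraries can give is 0.00794, which 11 ratios reached, all with groups that did not overlap. For scale, 71.9% of single genes passed the edgeR test and 57.8% had groups without overlap. Ratios of other gene pairs were not examined, so whether these counts are particular to tRNA charging is not known.

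The threonine pair shifted most toward the cytosol. TARS1 had 0.395, 0.438, 0.438, 0.667 and 0.928 counts per TARS2 count in control and 1.52, 1.88, 2.10, 1.66 and 1.70 in myopia, a change of 1.70 in the log2 ratio (exact permutation p = 0.00794, adjusted 0.0130). The leucine ratio, LARS1 over LARS2, rose from 1.91, 2.58, 2.27, 1.98 and 2.59 to 4.56, 5.31, 5.11, 4.32 and 5.87, a change of 1.15. The isoleucine ratio, IARS1 over IARS2, rose from 0.279, 0.280, 0.277, 0.386 and 0.397 to 0.581, 0.691, 0.692, 0.602 and 0.731, a change of 1.04. In the leucine and isoleucine pairs the cytosolic gene rose and the mitochondrial gene fell on the TMM scale, and in the threonine pair likewise. The ratios for cysteine (0.56) and FARSB over FARS2 (0.46) rose less. The FARSB ratio did not pass without myopia 2, 3, 4 or 5, with changes of 0.49, 0.44, 0.46 and 0.39 and adjusted exact permutation p values of 0.0659, 0.0612, 0.0612 and 0.0769.

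The methionine pair shifted most toward the mitochondrion. MARS1 had 40.1, 30.4, 42.1, 19.7 and 16.6 counts per MARS2 count in control and 10.1, 15.4, 9.44, 6.66 and 10.5 in myopia, a change of -1.47 (exact permutation p = 0.00794, adjusted 0.0130). MARS1 itself stood at 49.8, 47.6, 48.1, 58.4 and 54.1 CPM in control and at 39.9, 43.2, 43.2, 37.1 and 39.0 CPM in myopia. The tryptophan ratio, WARS1 over WARS2, fell from 56.0, 87.9, 52.5, 49.8 and 51.9 to 36.8, 23.0, 15.9, 24.4 and 25.7, a change of -1.26 that came with the fall of WARS1.

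The histidine ratio, HARS1 over HARS2, fell from 3.85, 3.94, 4.29, 3.60 and 2.92 to 1.69, 1.44, 1.72, 1.88 and 1.40, a change of -1.19. HARS1 stood at 59.5, 59.0, 61.5, 53.3 and 45.2 CPM in control and at 29.2, 32.3, 34.9, 34.1 and 33.8 CPM in myopia, so this pair of neighbouring genes moved in opposite directions on the TMM scale. The ratios for asparagine (-1.08), EPRS1 over EARS2 (-0.87), arginine (-0.72) and valine (-0.57) fell as well. The asparagine ratio also fell with both NARS lines summed (-1.25). The 5 ratios that did not pass were those for alanine (0.28), serine (0.33), tyrosine (-0.19), FARSA over FARS2 (0.11) and EPRS1 over PARS2 (-0.27), with adjusted exact permutation p values of 0.252, 0.105, 0.143, 0.294 and 0.105.

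**Figure D4:**
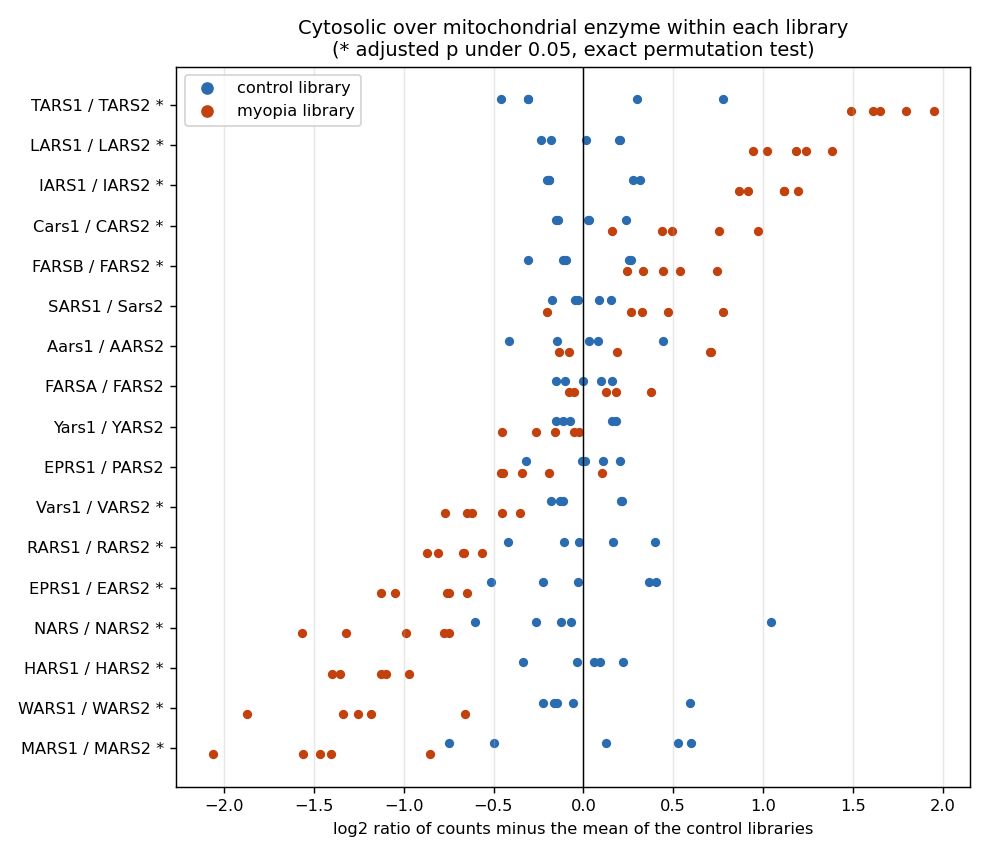
Log2 ratio of the counts of the cytosolic to the mitochondrial enzyme for 1 amino acid in each library, minus the mean of the control libraries, for 17 ratios (blue control, red myopia; stars mark an adjusted p under 0.05). The 5 starred ratios at the top lie to the right in myopia and the 7 starred ratios at the foot to the left, with the threonine and methionine pairs at the ends.

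Averaged over members, the compartments differed little. The mean log2 level of the mitochondrial set minus that of the cytosolic set, relative to control, was -0.02, -0.05, 0.04, 0.09 and -0.06 in control libraries 1 to 5 and 0.12, 0.13, 0.18, 0.29 and 0.16 in myopia. The groups did not overlap on this value, whose mean of 0.18 in myopia is small beside the changes of single pairs. It is given as a description with no test, since it averages over chosen genes.

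Other genes of tRNA charging moved in both directions. The counts of this and the following lists stand beside 36.9% of all genes higher and 35.1% lower, and no list was tested as a set. Of 8 genes for proofreading, selenocysteine charging and the tRNA end, and the TARS1 paralogue Tars3, 5 rose and 2 fell. TRNT1, which adds the CCA end that every charged tRNA carries, rose from 2.43 ± 0.505 to 8.71 ± 0.984 CPM (1.84 ± 0.18, SE). The proofreading genes Aarsd1, which removes misplaced serine from alanine tRNA, and Dtd1, which removes D-amino acids, fell by 1.64 ± 0.14 and 1.35 ± 0.13 on the log2 scale. The other proofreading genes of the list did not fall: PRORSD1 rose by 0.43 ± 0.13, and DTD2 had a value of 0.20 ± 0.18 that did not pass (edgeR adjusted p = 0.354). Of the 4 mitochondrial genes for amidation and formylation, MTFMT, which formylates the initiator methionine, rose by 0.56 ± 0.12, the amidotransferase subunit GATC fell by 0.44 ± 0.14, and 2 did not pass.

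Translation factors act on the charged tRNA after the synthetases. The 10 genes listed for cytosolic elongation had a median log2 fold change of -1.18, 8 having fallen and 2 risen. Those that rose were the kinase gene EEF2K (0.25 ± 0.07) and EIF5A2 (3.76 ± 0.66). EIF5A2 was scarcely counted, at 0.196 ± 0.292 CPM in control and 2.78 ± 0.762 CPM in myopia. EEF1A1, which carries charged tRNA to the ribosome, fell from 7491 ± 909.6 to 5414 ± 415 CPM (-0.47 ± 0.13). A fall of that size rests on the scaling, since the median of all genes stood at 0.47 with total counts alone. The exchange factor subunits of EEF1A1, EEF1B2 and EEF1G, fell, with log2 fold changes of -1.47 ± 0.16 and -1.45 ± 0.14. EIF5A, which relieves stalling on proline runs, fell by 0.96 ± 0.08. Of 9 mitochondrial factors tested 6 rose and 1 fell, with a median of 0.78: the initiation factor MTIF2 and the recycling factor GFM2 rose by 1.20 ± 0.11 and 0.91 ± 0.15, and Tufm, the mitochondrial counterpart of EEF1A1, fell by 0.89 ± 0.10. The difference between these lists was not tested.

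ATF4, a known regulator of many synthetase genes, fell from 567 ± 59.5 to 338 ± 27.6 CPM (-0.75 ± 0.10, edgeR adjusted p = 2.32e-05). These are values of its RNA and not of its protein, and its part in the synthetase values was not tested. Of 25 tested genes listed as ATF4 targets 14 fell and 4 rose, with a median of -0.76. The serine synthesis enzyme PHGDH, the translation repressor EIF4EBP1 and the transcription factor CEBPB fell by 1.12 ± 0.12, 1.34 ± 0.13 and 0.96 ± 0.10. The 4 that rose were VLDLR (1.51 ± 0.18), CEBPG (1.25 ± 0.22), VEGFA (1.16 ± 0.15) and MTHFD2 (0.62 ± 0.22). Asns, asparagine synthetase and a classical target, had a value of -0.07 ± 0.10 that did not pass (edgeR adjusted p = 0.554), and it stood at 0.38 and passed with total counts alone (edgeR adjusted p = 0.00872).

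Of 10 kinases and regulators upstream of ATF4, ATF4 itself included, 7 rose and 2 fell, with a median of 0.50. EIF2AK4 (GCN2), the kinase that senses uncharged tRNA, rose from 21.3 ± 1.97 to 38.6 ± 1.23 CPM (0.86 ± 0.09), and PPP1R15A, which ends the response, fell by 1.01 ± 0.15. Its paralogue PPP1R15B, with the same role, moved the other way, from 6.62 ± 4.61 to 34.1 ± 2.79 CPM (2.36 ± 0.38), the largest change on this list. Of 10 amino acid transporters 3 rose and 3 fell, shares below the 36.9% and 35.1% of all genes. SLC38A2, a carrier of small neutral amino acids, rose by 1.01 ± 0.10. SLC3A2, the partner chain of several carriers, and SLC43A1 fell by 1.20 ± 0.12 and 1.19 ± 0.14. Of 16 genes of amino acid sensing by mTORC1 7 fell and 3 rose, with LAMTOR1 and LAMTOR2, which anchor the complex at the lysosome, falling by 1.13 ± 0.09 and 1.24 ± 0.13 and FNIP1 rising by 1.40 ± 0.11.

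**Figure D5:**
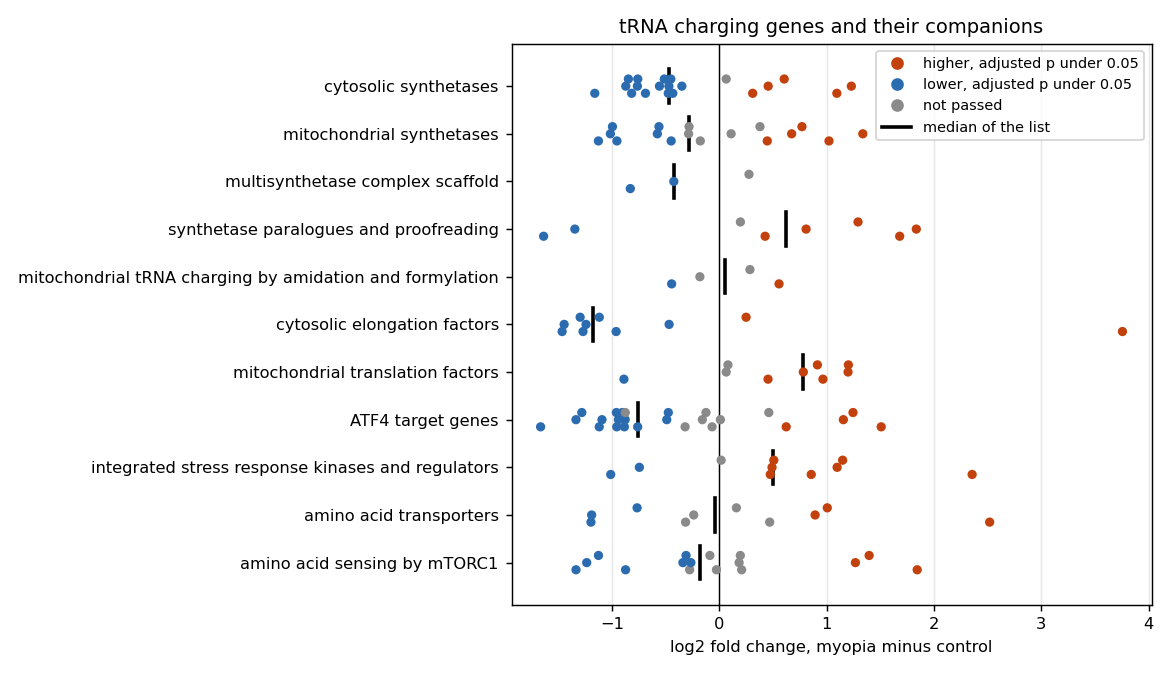
Log2 fold changes of the synthetase genes and of the lists of companion genes (points are genes, red rose, blue fell, grey did not pass; black bars are list medians). The medians run from -1.18 for cytosolic elongation factors to 0.78 for mitochondrial translation factors, with both synthetase sets between them.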

How the data were processed

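The deposited values are raw counts per gene symbol, 1 column per library. Which aligner, counter and annotation were used, and whether strand was, is not given in the sources used here; the submitters' processing notes name GRCm38 and mm10, which are mouse builds, with no role, so no coordinate, length or sequence is given. Per the labels' protocols, libraries came from an mRNA kit of the SMARTer family. A guinea pig gene table (mCavPor4.1) held 35 of the 37 member symbols.

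Of 18079 lines, 437 without a symbol (0.751% to 1.69% of counts) were left out. The group difference was fitted in edgeR 4.0.16 under R 4.3.3 (filterByExpr with minimum count 10 and minimum total 15, TMM factors, robust quasi-likelihood test, Benjamini-Hochberg over 14683 genes, threshold 0.05). The SE of a log2 fold change is its size over the root of the F statistic. Ratios used counts plus 0.5. No 2 libraries of a group agreed within sampling noise (chi-square over degrees of freedom 18.5 to 121). The labels do not tie libraries to animals, so p-values cover only the scatter of these libraries, which may be partly technical.

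Members and lists were chosen with earlier results of these data known. 2 members are included in every count and median and are not reported singly here; the other 35 are named. Values per library are given for the 3 highest and 3 lowest fold changes in each compartment among these, for WARS1, EPRS1, Qars1, GARS1 and Kars1, and for the pairs with the 3 largest changes of ratio in each direction. From companion lists ATF4, Asns, Aimp1, Aimp2, EEF1E1, Tufm and EEF1A1 are named, and otherwise at most 3 genes by smallest p. Other genes were named after their values were seen: PPP1R15B, PRORSD1, DTD2, EEF2K, EIF5A2, VLDLR, CEBPG, VEGFA, MTHFD2, and the fibroblast and skeletal muscle markers. Alternatives were RLE, upper quartile and total count scaling, other filters, DESeq2 1.42.0, limma-voom 3.58.1 with and without quality weights, a replicate block, non-robust dispersion, lines of a symbol summed, 1 surrogate variable (sva 3.50.0), and libraries left out. On simulated data for the 14683 genes, of which 200 were changed, the gene test recovered 78% of 2-fold and 98% of 4-fold changes. Far more genes differ in the real comparison, so these rates do not show how the test or the TMM scaling performs there.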

Additional observations from a re-analysis of the deposited data

Results flagged for a closer look

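In 2 of 74 combinations of a member and a group, 1 library stood apart from the other 4 by Dixon's criterion, which chance alone meets in about 1 of 20 groups. NARS stood at 65.4 CPM in control 5, above the other control libraries at 48.0 to 52.4 CPM. Yars1 stood at 29.4 CPM in myopia 1, above the other myopia libraries at 26.5 to 27.3 CPM.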

How the results depend on the processing

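The 31 members that passed did so in the same direction under 21 of the 23 alternatives to the edgeR fit. The exceptions were both lines of NARS summed, which ended its call, and scaling by total count alone, which kept 20 of the 31. On the total count scale 7 cytosolic and 3 mitochondrial synthetases were lower, 48 companion genes were higher against 31 with TMM factors, and 2752 of all genes were lower against 5149. Named genes that changed sign on that scale were Cars1 (0.0163), MARS1 (0.0900), TARS2 (0.00736), Aimp2 (0.0202) and GATC (0.00205), whose falls were lost, Asns (0.38), and VARS2 (0.18), YARS2 (0.16) and PARS2 (0.26), which had not passed with TMM factors. That shift follows from the scaling itself, since total counts move every gene by about the same amount. VARS2 also passed with DESeq2 (-0.31), with RLE factors (-0.31) and with quality weights (-0.38), and EARS2 with quality weights (0.40). Leaving out 1 library gave 7 to 8 ratios that fell and 5 to 6 that rose: EPRS1 over PARS2 was added without myopia 3 (-0.36), and SARS1 over Sars2 without myopia 4 (0.46).

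Groups share the replicate numbers 1 to 5, but same-numbered libraries did not deviate together (correlations of -0.13 to 0.013, with 0 of 5 controls best matched by their own number). The labels do not say that equal numbers form pairs, and 5 libraries per group cannot settle it. With a replicate block in edgeR the same 31 members passed, with 5184 genes higher and 4919 lower overall. In the paired form of the ratio test, an exact sign-flip test, 0 ratios fell and 0 rose: the smallest p that 5 pairs can give is 0.0625, which 14 ratios reached, so this test cannot pass the threshold. With 31 counts in its lowest library, MARS2 is the member that depth limits most.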
